A study of Mus musculus with 8 samples.

Results

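The mitosis and G2/M genes are a list of 45 mouse genes whose products carry a cell from the end of DNA replication through chromosome segregation to cytokinesis, sorted here by role into mitotic kinases with the Cdc25 phosphatase, cyclins and the anaphase-promoting complex, kinetochore and passenger complex proteins, spindle and chromosome proteins, and cytokinesis proteins. They were measured on an Illumina mouse whole-genome bead array, and a gene was taken from its brightest probe with a detection p below 0.05 on at least 4 of the 8 arrays. Of the 45 genes, 38 had a probe and 29 passed this filter, out of 9174 genes with a symbol that passed it in all. The RNA came from mSSC-YFP, a C57BL6/N spleen stromal cell line immortalised from E18.5 embryos and used at passage 2 to 6. In 4 samples (leukemic) the stroma had been cultured with primary spleen B cells of adult, highly leukemic *Eμ-TCL1* mice, in which a transgene under a B cell enhancer and promoter drives the human TCL1 oncogene in B cells, and in the other 4 (control) with primary splenic B cells of adult mice matched for age. Cultures lasted 40 to 48 h at a labelled ratio of 1:20 of stroma to B cells, and the stroma was then sorted away from adherent B cells by its YFP. All stroma is 1 cell line. Nothing in the labels sets separate cultures or separate B cell donors apart from repeats of 1 culture, so the p-values here cover the spread among these 8 samples, which may be technical. Fewer dividing cells and less transcript per dividing cell cannot be told apart in such bulk RNA.

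Transcripts of mitotic genes build up in G2 and are lost as cells leave mitosis or rest, so their level in a culture follows the share of cells in division. In resting cells the DREAM complex keeps many of them silent through a CHR element (TTTGAA or TTTAAA) close to the gene start, and in G2 the MYBL2-MuvB complex and FOXM1 act through the same element, while NF-Y binds neighbouring CCAAT boxes. Fibroblastic stroma of the adult spleen divides little, whereas an immortalised line cycles in culture.

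The 8 arrays lay on 1 chip with the groups alternating, and detected between 13504 and 13938 of 25697 probes. Leukemic replicate 4 stood apart from the rest, with correlations across features of 0.955 to 0.970 with the other 7 arrays, against 0.984 to 0.995 among those 7. It also carried the most B cell message. Of 19 B cell markers with a probe, 9 to 14 were detected on the leukemic arrays (14 on replicate 4) and 8 or 9 on the control arrays, and their summed signal was 10228.3 on leukemic replicate 4, 2040.6 to 2269.4 on the other leukemic arrays and 1379.6 to 1780.3 on the control arrays. *Ms4a1* (CD20), *Pax5* and *Spib* were not detected on any array, nor was *Ptprc* (CD45), while *Cd79a*, *Cd79b*, *Cd74* and *Cd52* were detected on all 8. Of 11 pan-leukocyte markers, 4 to 7 were detected on leukemic arrays, with a summed signal of 3301.9 to 9332.3 (highest on replicate 4), and 4 to 6 on control arrays, with 3674.3 to 4622.1. Of 14 fibroblast and spleen mesenchyme markers, 12 or 13 were detected on every array, with a summed signal of 81847.5 to 112423.5 on leukemic arrays and 84978.1 to 97478.7 on control arrays. *Tlx1*, which defines spleen mesenchyme in the embryo, was not detected on any array, and *Nkx2-5* was detected on all. The part of the B cell and leukocyte message in the results on mitotic genes was not tested, and the medians of the lists and the differences of the named genes are given with and without leukemic replicate 4.

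All 29 measured genes had a lower mean in the stroma cultured with leukemic B cells than in the stroma cultured with control B cells, yet none passed a test across all features. Differences (leukemic minus control, log2 scale) ran from −0.99 for the brightest probe of *Melk*, which was not above background on leukemic replicate 4, to −0.02 for *Ube2c*, with a median of −0.48, against 0.0028 over all 9971 features, of which 49.4% had a lower leukemic mean. The rank product, which sets the ranks of genes between arrays against permuted ranks, called 0 of the 29 as having fallen at a q below 0.05 (0% of all features fell and 0.311% rose). The lowest q was 0.107, for *Shcbp1*. limma, which sets each difference against the gene's spread between arrays, called 0 as well (0% of all features in either direction), with a smallest adjusted p of 0.639. At an unadjusted limma p below 0.05 there were 6 (*Melk*, *Shcbp1*, *Aurka*, *Prc1*, *Top2a* and *Cdk1*), where 3.68% of all features passed on the lower side and 3.9% on the higher side. Cell cycle genes are among the groups that the study picked out from these arrays, so the shared direction is not independent evidence.

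The result hung on a few arrays. Without leukemic replicate 4 the median difference was −0.22, and 25 of the 29 genes kept a lower leukemic mean, as 48.5% of all features had there. *Cdc25c*, *Cdca3*, *Dlgap5* and *Ube2c* were then higher in leukemic co-culture, by 0.05, 0.08, 0.22 and 0.17. The turn of *Cdc25c* and *Cdca3* held for their brightest probe only, as their other kept probe gave −0.10 and −0.06. In 26 genes the difference moved by over 1.5 times or turned, and *Pttg1*, *Mad2l1* and *Top2a* were the exceptions. Without leukemic replicate 2, the highest of the leukemic arrays, the median was −0.71 and the rank product called 2 genes, *Melk* and *Shcbp1*, among 16 features that fell in all. Without control replicate 4 it called *Shcbp1* alone of the 29 genes, among 3 features.

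**Figure D1:**
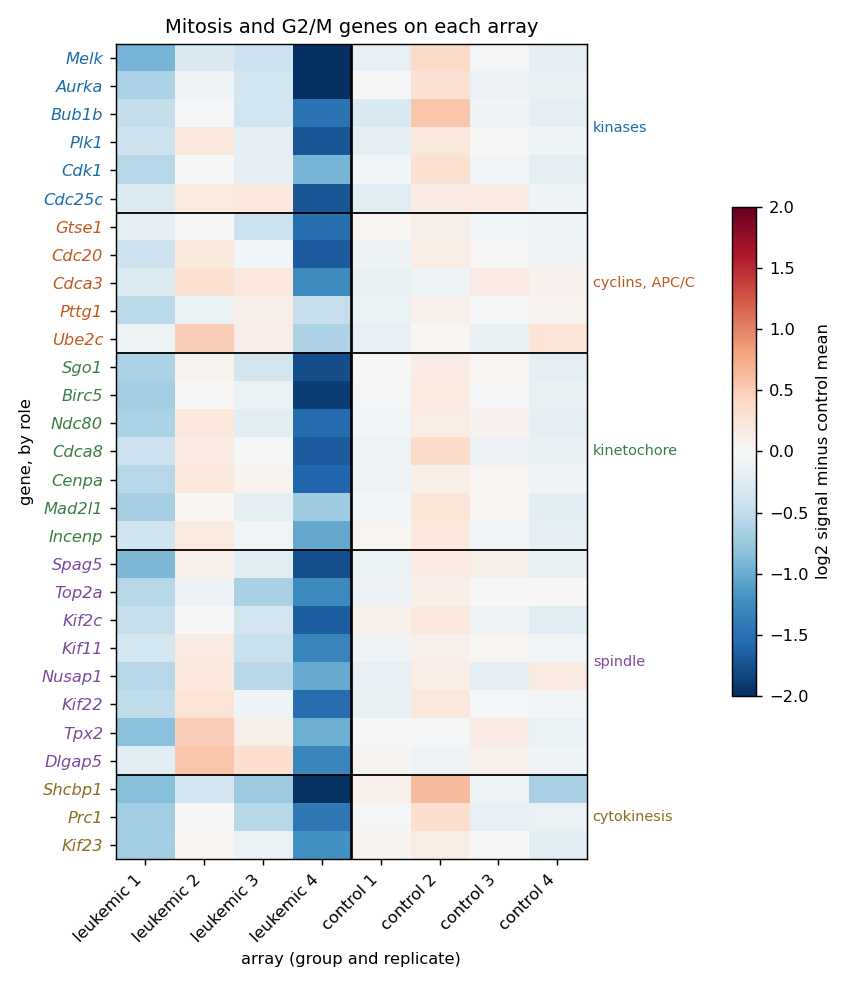
Log2 signal minus the control mean of each measured gene (rows, by role) on the 4 leukemic and the 4 control arrays (columns), with colours cut off at −2 and 2. Leukemic replicate 4 is the darkest column, leukemic replicate 1 is paler but blue in nearly every row, and leukemic replicate 2 resembles the control arrays.

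Set against the range of the 4 control arrays, the leukemic arrays did not form a single group. Leukemic replicate 4 lay below all control arrays in 29 of 29 genes (34.6% of all features lay there on this array) and leukemic replicate 1 in 28 (24.7%). Leukemic replicate 3 did so in 14 genes (21.2%), lay within the control range in 11 and above it in 4. Leukemic replicate 2 lay below in 3 genes only (15.5%), within the range in 15 and above it in 11. The median over the 29 genes, as a deviation from the control mean, was −0.57, 0.10, −0.20 and −1.51 on leukemic replicates 1 to 4, against −0.07, 0.16, −0.02 and −0.14 on control replicates 1 to 4. Leukemic replicate 4 was the lowest of all 8 arrays in 28 genes, where 29.1% of all features were lowest there, and *Pttg1* was lowest on leukemic replicate 1. The highest array was control replicate 2 in 17 genes, leukemic replicate 2 in 10 and leukemic replicate 3 in 2.

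Only *Melk* (by its brightest probe) and *Top2a*, 2 of the 29, had all leukemic arrays below all control arrays, where 2.31% of all features did. The same 2 genes did so without leukemic replicate 4 (4.05% of all features), and 14 did so without leukemic replicate 2 (5.72% of all features). The spread among leukemic arrays was wide, with a median SD of 0.72 against 0.16 among control arrays, and the leukemic SD was the larger in 29 of 29 genes, where it was the larger in 6364 of all 9971 features. Without leukemic replicate 4 the median leukemic SD was 0.33. Of the 29 genes 27 were detected on all 8 arrays, while the brightest probe of *Melk* was not above background on leukemic replicate 4 and *Ube2c* was detected on only 2 leukemic and 2 control arrays.

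**Figure D2:**
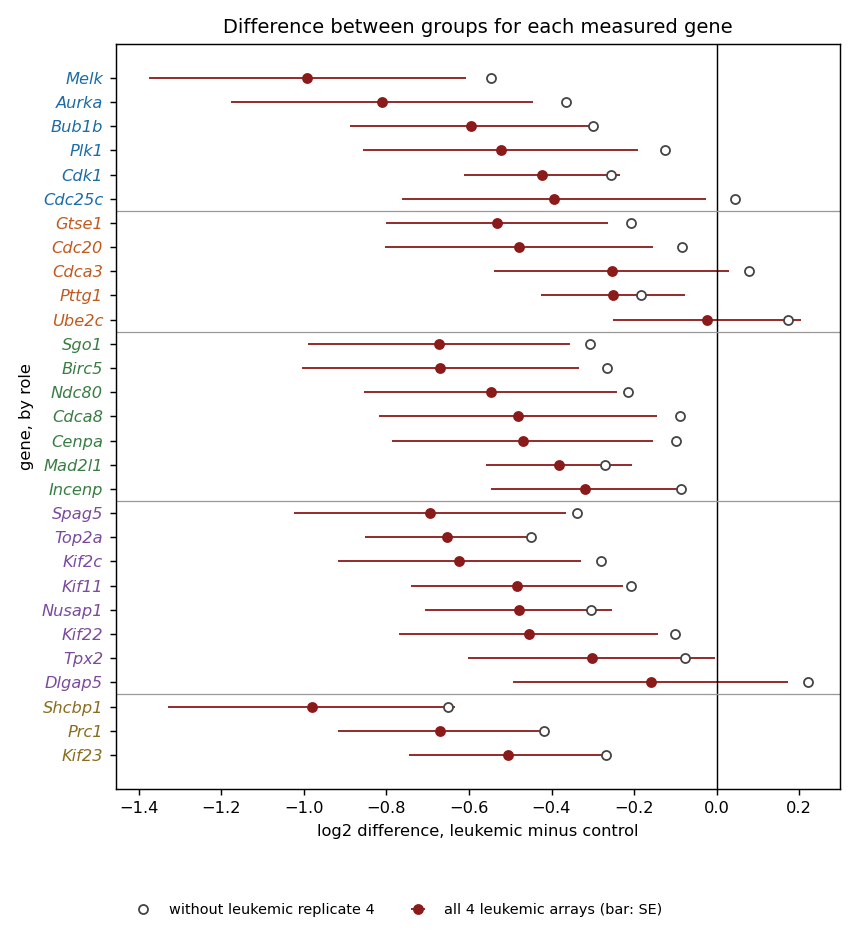
Log2 difference (leukemic minus control, x axis) of each measured gene by role, with all 4 leukemic arrays (filled points, bars ± SE) and without leukemic replicate 4 (open points). All 29 filled points lie left of 0 and all 29 open points lie right of their filled point, 4 of them past 0.

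The promoters were searched for CHR and CCAAT elements, which are known in promoters of G2/M genes. A high share in this list is therefore not an independent finding. RefSeq promoters (mouse build GRCm38.p6, 250 bases before to 50 after the gene start) were found for 37 of the 45 genes, 40 promoters in all. *Incenp*, *Kif20a*, *Ccna2*, *Tpx2*, *Dlgap5*, *Cdc25c*, *Aurkb* and *Shcbp1* were not matched. The motifs searched on both strands were TTTGAA and TTTAAA (which is its own reverse complement) as CHR, and CCAAT, and 1 CHR match and 1 CCAAT match overlapped. A CHR match stood in 32 of the 40 promoters (80%), against 27.6% of all 32851 promoters and 19.1% of the 9670 promoters of genes measured here. A CCAAT match stood in 32 (80%), against 37.4% of all promoters. Both together stood in 29 (72.5%), against 10.7% of all promoters, 7.62% of those of measured genes and 39.7% of those of 61 other mitotic genes, whose promoters held a CHR match in 57.4% and a CCAAT match in 66.2%. TTTGAA was the commoner CHR, in 67.5% of the listed genes' promoters, against 27.5% for TTTAAA. A match is a description of the letters and not a bound site.

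Of 47 CHR matches 35 began between −100 and +50 from the gene start, and of 73 CCAAT matches 53 did. These positions were not set against those in other promoters, and matches in overlapping promoters of the same gene were counted in each. In the promoters with both, the smallest distance between a CHR and a CCAAT match, from first base to first base, had a median of 25 bases. Among listed genes measured on the arrays, the 16 with both matches had a median log2 difference of −0.49 (−0.81 to −0.02) and the 8 without both had −0.59 (−0.99 to −0.25), so the ranges overlap widely. The promoters below are shown because they belong to genes with large differences or to the central kinase, and because they show how varied the layout is. They are written from 5′ to 3′ on the strand of the gene, with CHR and CCAAT matches (or their reverse complements TTCAAA and ATTGG) in capitals. *Aurka* (chr2:172370521-172370820, minus strand) has 2 CCAAT boxes ahead of a TTTAAA and a TTTGAA that both lie just past the start. *Cdk1* (chr10:69352863-69353162, minus strand) has 2 TTTGAA among 3 inverted CCAAT boxes. *Spag5* (chr11:78301341-78301640, plus strand) has 1 inverted TTTGAA whose first base lies 6 bases from the first base of an inverted CCAAT match. *Top2a* (chr11:99024140-99024439, minus strand) has 6 CCAAT matches. *Melk* (chr4:44300667-44300966, plus strand), whose brightest probe gave the lowest difference, holds none of these letters in this window.
Aurka: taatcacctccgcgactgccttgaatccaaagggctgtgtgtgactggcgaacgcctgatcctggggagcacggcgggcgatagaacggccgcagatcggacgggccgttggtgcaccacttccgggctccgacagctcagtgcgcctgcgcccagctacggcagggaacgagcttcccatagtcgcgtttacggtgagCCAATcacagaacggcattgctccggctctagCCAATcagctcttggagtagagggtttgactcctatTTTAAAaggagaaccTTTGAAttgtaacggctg
Cdk1: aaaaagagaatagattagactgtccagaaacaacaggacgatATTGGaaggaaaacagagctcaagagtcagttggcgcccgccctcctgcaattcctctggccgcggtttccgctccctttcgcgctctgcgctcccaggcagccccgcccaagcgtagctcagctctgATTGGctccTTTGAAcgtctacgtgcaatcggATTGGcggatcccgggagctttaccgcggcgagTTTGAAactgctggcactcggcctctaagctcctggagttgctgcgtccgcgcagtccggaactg
Spag5: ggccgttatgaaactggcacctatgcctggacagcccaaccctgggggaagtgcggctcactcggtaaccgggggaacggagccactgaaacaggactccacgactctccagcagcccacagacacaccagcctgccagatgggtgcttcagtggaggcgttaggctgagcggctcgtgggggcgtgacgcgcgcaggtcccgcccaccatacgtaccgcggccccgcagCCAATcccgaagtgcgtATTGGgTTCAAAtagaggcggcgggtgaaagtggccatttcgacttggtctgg
Top2a: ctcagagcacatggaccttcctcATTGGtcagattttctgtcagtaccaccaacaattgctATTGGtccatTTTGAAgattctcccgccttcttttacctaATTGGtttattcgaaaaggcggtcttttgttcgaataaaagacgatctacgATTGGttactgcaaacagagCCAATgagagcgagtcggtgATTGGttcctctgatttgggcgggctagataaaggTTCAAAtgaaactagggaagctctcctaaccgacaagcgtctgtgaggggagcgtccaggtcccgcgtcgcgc
Melk: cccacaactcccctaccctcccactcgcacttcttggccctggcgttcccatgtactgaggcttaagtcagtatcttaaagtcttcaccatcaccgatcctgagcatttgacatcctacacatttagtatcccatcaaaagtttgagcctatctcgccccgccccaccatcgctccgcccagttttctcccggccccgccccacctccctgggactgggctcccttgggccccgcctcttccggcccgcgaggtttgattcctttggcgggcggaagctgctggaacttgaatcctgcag

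**Figure D3:**
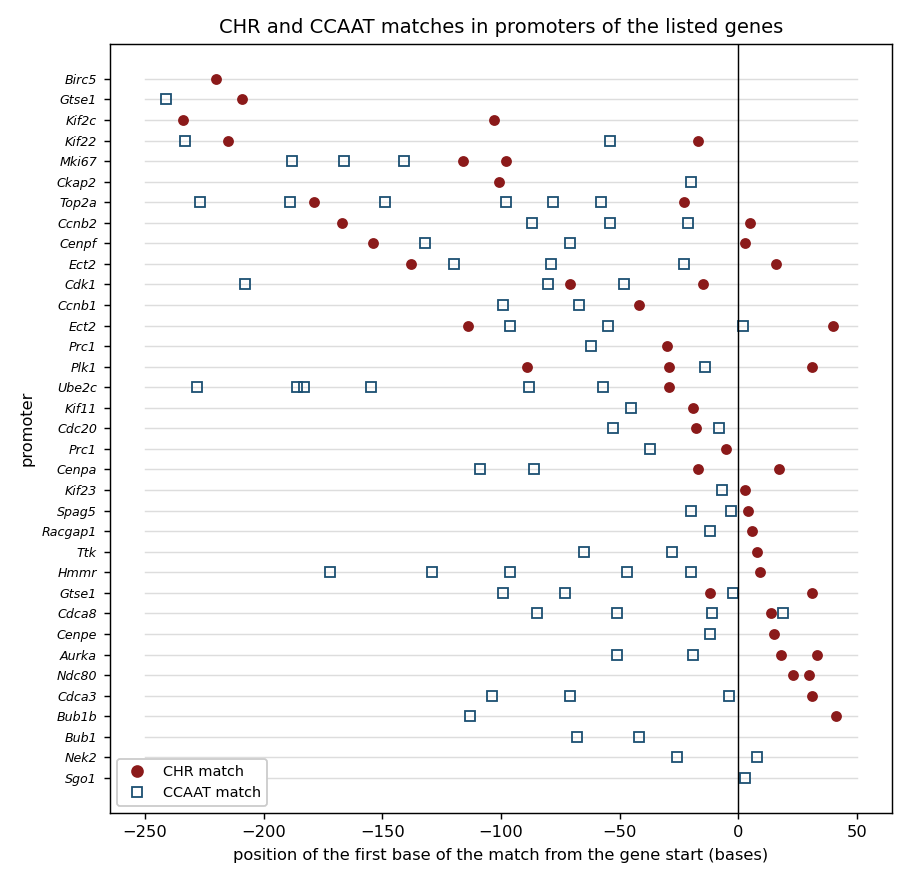
Position (bases from the gene start, x axis) of the first base of each CHR match (filled circles) and CCAAT match (open squares) in the promoters of listed genes that hold at least 1 of them (rows; a gene with several starts has several rows). The median position is −17 for CHR and −67 for CCAAT.

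Among the kinases and the Cdc25 phosphatase, 6 of 10 genes were measured and all 6 had a lower leukemic mean, with a median difference of −0.56 (−0.28 without leukemic replicate 4). *Melk*, a kinase related to AMPK whose transcript peaks in mitosis, had log2 signals of 6.32, 6.96, 6.84 and 4.92 on leukemic replicates 1 to 4, against 7.08, 7.63, 7.21 and 7.08 on control replicates 1 to 4. In this, its brightest probe, every leukemic array lay below every control array, though leukemic replicate 2 missed the lowest control by little. The difference was −0.99 ± 0.38 (SE, n = 4 per group), with a limma adjusted p of 0.639 and a rank product q of 0.121. It rests partly on leukemic replicate 4, where this probe was not above background, and was −0.55 without that array. The other kept probes of *Melk*, detected on all 8 arrays, gave −0.48 and −0.41. Before normalization both were highest on leukemic replicate 2, at 134.6 (control arrays 92.1 to 123.6) and 168.7 (control arrays 94.2 to 132.8). These raw values are not corrected for the level of the array. The median signal of all probes was 84.7 on leukemic replicate 2 and 67.2 to 79.5 on the control arrays. With detection required on all 8 arrays, the probe at −0.41 was used and the rank product q was 0.510.

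*Aurka*, the Aurora kinase of centrosomes and spindle poles, had 9.24, 9.80, 9.51 and 7.73 on the leukemic arrays, against 9.86, 10.17, 9.76 and 9.74 on the control arrays, a difference of −0.81 ± 0.37 (−0.36 without leukemic replicate 4). Leukemic replicate 2 overlapped the control arrays and the other leukemic arrays lay below them. *Bub1b*, the spindle checkpoint kinase-like protein BubR1, had 8.10, 8.54, 8.19 and 7.09 on the leukemic arrays, against 8.27, 9.13, 8.50 and 8.39 on the control arrays, a difference of −0.59 ± 0.29 (−0.30 without leukemic replicate 4). Leukemic replicate 2 alone overlapped the control arrays of *Bub1b*, whose replicate 2 was high. *Cdk1*, the kinase that drives entry into mitosis, had 10.68, 11.25, 11.05 and 10.32 on the leukemic arrays, against 11.19, 11.55, 11.20 and 11.05 on the control arrays, and its difference was smaller at −0.42 ± 0.19 (−0.26 without leukemic replicate 4). Leukemic replicates 2 and 3 lay at or inside the control range of *Cdk1*, and replicates 1 and 4 lay below it. *Plk1*, the Polo-like kinase of centrosome maturation, differed by −0.52 ± 0.33 (−0.13 without leukemic replicate 4) and *Cdc25c*, the phosphatase that activates Cdk1, by −0.39 ± 0.37 (0.05 without it), and in both the interval of the difference included 0 (−1.26 to 0.21 for *Plk1* and −1.21 to 0.42 for *Cdc25c*, 95% limma intervals).

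Of the role that holds cyclins, the anaphase-promoting complex (the ubiquitin ligase that ends mitosis) and its targets, 5 of 8 genes were measured. No cyclin was among them, as *Ccna2*, *Ccnb1* and *Ccnb2* had no measured value. These 5 had the smallest median difference of the 5 roles, −0.25 (−0.08 without leukemic replicate 4). Signal was low in 2 of them, *Pttg1* and *Ube2c*. *Gtse1*, a microtubule-binding protein of G2 cells, had 10.49, 10.69, 10.26 and 9.18 on the leukemic arrays, against 10.72, 10.81, 10.64 and 10.58 on the control arrays, a difference of −0.53 ± 0.27 (−0.21 without leukemic replicate 4). Its control values were tight, and leukemic replicate 2 alone lay among them. *Cdc20*, which activates the complex at anaphase, had 10.45, 11.08, 10.82 and 9.20 on the leukemic arrays, against 10.76, 11.01, 10.90 and 10.80 on the control arrays, a difference of −0.48 ± 0.32 that was −0.08 without leukemic replicate 4. Here leukemic replicate 2 was the highest of all 8 arrays. *Cdca3*, an F-box protein that helps trigger entry into mitosis, had 10.90, 11.48, 11.39 and 9.92 on the leukemic arrays, against 11.02, 11.07, 11.35 and 11.27 on the control arrays, a difference of −0.25 ± 0.28 that turned to 0.08 without leukemic replicate 4. For *Cdca3*, 2 leukemic arrays lay above all control arrays and 2 below them.

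*Pttg1*, the securin that holds back separase, differed by −0.25 ± 0.17 (−0.18 without leukemic replicate 4). *Ube2c*, the ubiquitin-conjugating enzyme of the complex, had 5.06, 5.65, 5.29 and 4.54 on the leukemic arrays, against 4.99, 5.20, 5.02 and 5.43 on the control arrays, close to background throughout. Its groups overlapped fully, with a difference of −0.02 ± 0.23 and an interval of −0.53 to 0.48 (0.17 without leukemic replicate 4).

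At the kinetochore, where chromosomes meet spindle fibres, and in the chromosomal passenger complex, which corrects faulty attachments, 7 of 9 genes were measured, with a median difference of −0.48 (−0.22 without leukemic replicate 4). All 7 kept a lower leukemic mean without that array. *Sgo1*, the shugoshin that guards centromeric cohesin, had 8.42, 9.11, 8.69 and 7.28 on the leukemic arrays, against 9.04, 9.22, 9.08 and 8.85 on the control arrays, a difference of −0.67 ± 0.32 (−0.31 without leukemic replicate 4). *Birc5*, the passenger protein survivin, had 10.93, 11.64, 11.47 and 9.73 on the leukemic arrays, against 11.59, 11.81, 11.59 and 11.47 on the control arrays, a difference of −0.67 ± 0.34 (−0.27 without leukemic replicate 4). Leukemic replicate 2 alone lay within the control range in *Sgo1*, and leukemic replicates 1 and 4 lay far below it in both genes. *Ndc80*, the outer kinetochore protein that grips microtubules, had 7.81, 8.65, 8.23 and 6.90 on the leukemic arrays, against 8.38, 8.59, 8.53 and 8.27 on the control arrays, a difference of −0.55 ± 0.31 (−0.22 without leukemic replicate 4). Its highest value of all was on leukemic replicate 2. The remaining 4 were *Cdca8* (borealin, −0.48 ± 0.34), *Cenpa* (the centromeric histone H3 variant, −0.47 ± 0.32), *Mad2l1* (a spindle checkpoint protein, −0.38 ± 0.18) and *Incenp* (the passenger complex scaffold, −0.32 ± 0.23). They stood, without leukemic replicate 4, at −0.09 for *Cdca8*, −0.10 for *Cenpa*, −0.27 for *Mad2l1* and −0.09 for *Incenp*.

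Of the spindle and chromosome genes 8 of 12 were measured, with a median difference of −0.48 (−0.24 without leukemic replicate 4). *Top2a*, the topoisomerase that untangles sister chromatids, was the member with the smallest limma p, 0.00728 before and 0.639 after adjustment over all features. Its log2 signals were 10.37, 10.82, 10.29 and 9.67 on the leukemic arrays, against 10.83, 11.06, 10.93 and 10.94 on the control arrays, a difference of −0.65 ± 0.20 (−0.45 without leukemic replicate 4). All leukemic arrays lay below all control arrays, with leukemic replicate 2 and control replicate 1 nearly touching. *Spag5*, the spindle protein astrin, had 8.70, 9.69, 9.38 and 7.83 on the leukemic arrays, against 9.46, 9.75, 9.71 and 9.44 on the control arrays, a difference of −0.69 ± 0.33 (−0.34 without leukemic replicate 4). *Kif2c*, a kinesin that takes microtubules apart at centromeres, had 9.03, 9.50, 9.12 and 7.84 on the leukemic arrays, against 9.60, 9.70, 9.42 and 9.26 on the control arrays, a difference of −0.62 ± 0.30 (−0.28 without leukemic replicate 4). Leukemic replicate 2 overlapped the control arrays in both *Spag5* and *Kif2c*.

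The other spindle genes lay between −0.48 and −0.16. *Kif11*, the motor that pushes spindle poles apart, differed by −0.48 ± 0.26, *Nusap1*, a microtubule bundling protein, by −0.48 ± 0.23, and *Kif22*, a chromosome-arm motor, by −0.46 ± 0.31. *Tpx2*, the activator of Aurora A, differed by −0.30 ± 0.30. Leaving out leukemic replicate 4 gave −0.21 for *Kif11*, −0.30 for *Nusap1*, −0.10 for *Kif22* and −0.08 for *Tpx2*. *Dlgap5* (HURP), which steadies kinetochore fibres, had 7.55, 8.33, 8.10 and 6.48 on the leukemic arrays, against 7.83, 7.71, 7.88 and 7.68 on the control arrays, with leukemic arrays on either side of a tight control group. Its difference was −0.16 ± 0.33, and 0.22 without leukemic replicate 4. The values of *Dlgap5* and *Ube2c* were chosen for display after they were seen, as the genes of this list with the smallest differences.

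The cytokinesis genes had the lowest median, −0.67 over 3 of 6 genes (−0.42 without leukemic replicate 4), and all 3 kept a lower leukemic mean without that array. *Shcbp1*, an adaptor-binding protein found at the midbody, had 6.92, 7.41, 7.06 and 5.81 on the leukemic arrays, against 7.88, 8.42, 7.69 and 7.13 on the control arrays. The difference was −0.98 ± 0.35, 0.507 times the control level, and −0.65 without leukemic replicate 4. It was −0.71 without background correction and −0.34 (rank product q 0.308) in the authors' values. Control replicate 4 was the low one of its group and reached into the leukemic range. *Prc1*, which bundles the microtubules of the central spindle, had 10.87, 11.56, 11.00 and 10.14 on the leukemic arrays, against 11.53, 11.89, 11.40 and 11.43 on the control arrays, a difference of −0.67 ± 0.25 (−0.42 without leukemic replicate 4). *Kif23*, the kinesin of the centralspindlin complex, had 9.02, 9.76, 9.58 and 8.50 on the leukemic arrays, against 9.77, 9.87, 9.72 and 9.51 on the control arrays, a difference of −0.50 ± 0.24 (−0.27 without leukemic replicate 4). In *Prc1* and *Kif23* only leukemic replicate 2, joined in *Kif23* by replicate 3, overlapped the control arrays.

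**Figure D4:**
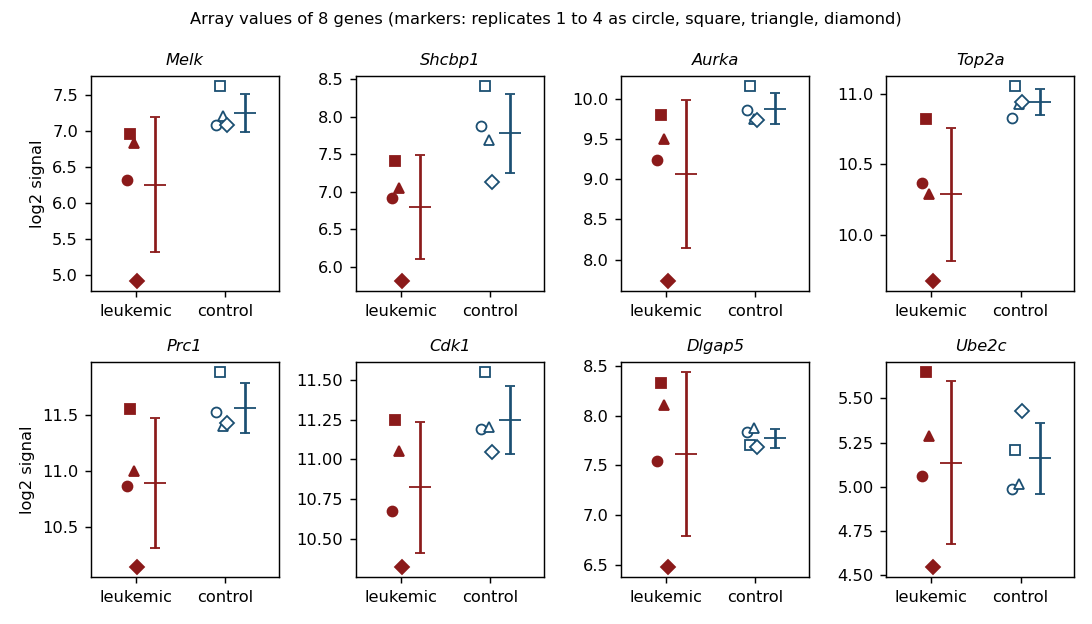
Log2 signal of 8 genes on each array, leukemic left and control right in each panel, with the group mean and SD beside the points (n = 4 per group, each panel with its own scale). Groups are apart in *Melk* (brightest probe) and *Top2a*. They touch or overlap by 1 or 2 leukemic arrays in *Shcbp1*, *Aurka*, *Prc1* and *Cdk1*. In *Dlgap5* and *Ube2c* leukemic arrays lie on both sides of the control arrays.

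With all arrays in, genes with several kept probes gave the same direction in each probe. Without leukemic replicate 4 the kept probes of *Cdc25c* and of *Cdca3* differed in direction. Of 63 probes for listed genes 39 passed the filter, and all 39 had a lower leukemic mean, including the extra probes of the 6 genes that had more than 1. *Birc5* had 3 kept probes, at −0.67, −0.69 and −0.55, and *Cdc20* had 4, at −0.48, −0.49, −0.73 and −0.55. Of the 16 genes without a measured value, *Aurkb*, *Ccnb1*, *Cenpf*, *Ckap2*, *Tacc3*, *Mki67* and *Racgap1* had no probe under their symbol, so the proliferation marker Ki-67 and cyclin B1 were not analysed here. The other 9 had probes below the filter. *Bub1*, *Nek2*, *Ccnb2*, *Cenpe*, *Hmmr*, *Ect2* and *Kif20a* were not detected on any array, and *Ccna2* and *Ttk* were detected on 1 leukemic and 1 control array each. *Ccna2*, the cyclin of S phase and G2, gave −0.21 at that level. A probe below background does not show that its gene was silent. The measured genes *Cdk1*, *Cdc25c*, *Gtse1*, *Ndc80*, *Sgo1*, *Nusap1* and *Spag5* each also had a probe that was not detected on any array.

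Further lists of division, replication and cell cycle control were measured on the same arrays, and differences between lists were not tested. Over all features 49.4% had a lower leukemic mean, and 3.68% were lower and 3.9% higher at an unadjusted limma p below 0.05. Of 72 other mitotic genes 43 were measured, 40 had a lower leukemic mean and 0 fell by the rank product (8 at an unadjusted limma p below 0.05), with a median of −0.45 (−0.15 without leukemic replicate 4). *Kif18b*, a kinesin of microtubule plus ends, differed by −0.81 ± 0.37, *Depdc1b* by −0.71 ± 0.32 and *Cep55*, an organiser of the midbody, by −0.71 ± 0.19. Without leukemic replicate 4 the differences were −0.37 for *Kif18b*, −0.37 for *Depdc1b* and −0.59 for *Cep55*. With all arrays in, *Cep55* was 1 of 2 among these 43 genes with all leukemic arrays below all control arrays (2.31% of all features). Of 55 DNA replication and S phase genes 46 were measured, 45 had a lower leukemic mean and 0 fell by the rank product (9 at an unadjusted limma p below 0.05), with a median of −0.31 (−0.14 without leukemic replicate 4). *Mcm7*, a subunit of the replicative helicase, differed by −0.85 ± 0.32, *Cdc6*, a helicase loader, by −0.68 ± 0.30 and *Mcm10*, a replication initiation factor, by −0.67 ± 0.33. They were, without leukemic replicate 4, −0.57 for *Mcm7*, −0.38 for *Cdc6* and −0.29 for *Mcm10*.

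Of 16 transcriptional regulators of G2/M genes 12 were measured, and 11 had a lower leukemic mean. By the rank product 0 fell, and 1 was lower at an unadjusted limma p below 0.05 (3.68% of all features). Their median was −0.17 with and without leukemic replicate 4. *Mybl2* (B-Myb) differed by −0.54 ± 0.28, *Foxm1* by −0.32 ± 0.22, the pocket protein gene *Rbl1* (p107) by −0.38 ± 0.18 and *Tfdp1*, the partner of E2F factors, by −0.37 ± 0.15. Leaving out leukemic replicate 4 gave −0.30 for *Mybl2*, −0.15 for *Foxm1*, −0.22 for *Rbl1* and −0.29 for *Tfdp1*. In the mean of a gene's probes, with all arrays in, *Mybl2* stood at −0.37 and *Foxm1* at −0.38. *Mybl2* had 7.35, 8.06, 8.29 and 6.93 on the leukemic arrays, against 8.30, 8.36, 8.29 and 7.85 on the control arrays, so that leukemic replicates 1 and 4 lay below the control range, as they did for most of the mitotic genes.

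Among G1 cyclins, kinases and inhibitors, 18 of 19 genes were measured, and 11 had a lower leukemic mean. By the rank product 0 rose or fell. At an unadjusted limma p below 0.05, 2 were higher (3.9% of all features) and 1 was lower (3.68%). Their median was −0.09 (−0.04 without leukemic replicate 4). *Ccne2*, the cyclin E of the entry to S phase, differed by −0.63 ± 0.34 (−0.35 without leukemic replicate 4). Its signal was low, at 4.83 on leukemic replicate 4, and it gave −0.35 without background correction and −0.11 in the authors' values. *Ccnd3* (cyclin D3) had 12.08, 11.96, 11.81 and 12.41 on the leukemic arrays, against 11.70, 11.55, 11.64 and 11.56 on the control arrays, with all leukemic arrays above all control arrays (2.21% of all features) and a difference of 0.45 ± 0.12 (0.34 without leukemic replicate 4). *Cdkn2a*, the locus of the p16 and p19 inhibitors, differed by 0.27 ± 0.10 (0.33 without leukemic replicate 4) in its brightest probe and by 0.0090 in the mean of its probes. *Cdkn1a*, the inhibitor p21, differed by −0.24 ± 0.10 (−0.20 without leukemic replicate 4). *Ccnd1* (cyclin D1) differed by −0.21 ± 0.21, and by 0.05 without leukemic replicate 4.

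The lists differed most on leukemic replicate 4, where the median deviation from the control mean was −1.51 for the mitosis and G2/M genes, −1.08 for other mitotic genes, −0.91 for replication genes and −0.12 for G1 genes. On leukemic replicate 1, whose B cell markers lay at 0.77, the same medians were −0.57, −0.48, −0.44 and −0.09. On leukemic replicate 2, whose B cell markers lay at 0.61, they were 0.10, 0.12, 0.02 and 0.01, and on leukemic replicate 3, whose B cell markers lay at 0.60, they were −0.20, −0.23, −0.07 and −0.03. B cell markers had a median difference of 1.38 (0.73 without leukemic replicate 4) and 6 of the 8 measured rose by the rank product, where 0.311% of all features rose, led by *Mzb1* (2.40 ± 0.87), *Cd79b* (1.68 ± 0.51) and *Cd52* (1.53 ± 0.48). These were, without leukemic replicate 4, 1.46 for *Mzb1*, 1.10 for *Cd79b* and 0.96 for *Cd52*. In the authors' normalized values the calls of *Cd79b* (0.57, rank product q 0.155) and *Cd52* (0.55, q 0.182) were lost, and that of *Cd52* also without both arrays numbered 4 (q 0.070). The 12 measured fibroblast markers had a median of −0.02 (−0.07 without leukemic replicate 4), and stood at 0.12 on leukemic replicate 4.

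**Figure D5:**
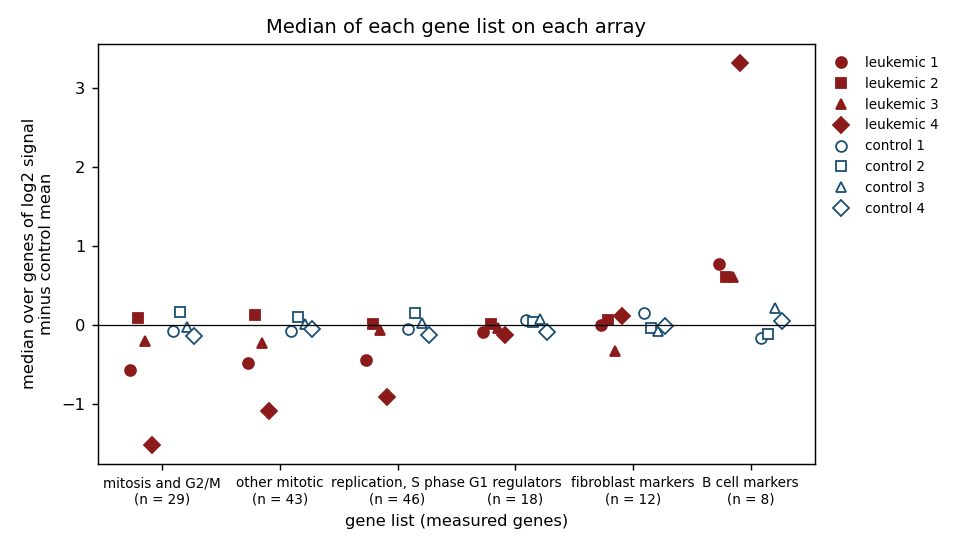
Median over the measured genes of 6 lists of the log2 signal minus the control mean (y axis), for each leukemic array (filled) and control array (open), with n the number of genes. In the 3 division and replication lists leukemic replicates 4 and 1 lie lowest, at −1.51 and −0.57 for the mitosis and G2/M genes, while B cell markers on leukemic replicate 4 reach 3.31.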

How the data were processed

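The authors amplified RNA of sorted stroma and hybridised it to Illumina bead arrays. The signals they deposited are intensity values on a linear scale, not normalized between arrays, each with a detection p-value computed against negative control beads. The matrix that the authors normalized with lumi holds log2-like values with identical quantiles on every array (median 7.72) and unstated settings, and served as an alternative.

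The 45 genes, their roles and the other gene lists were chosen with earlier results of these data known. Intensities were corrected and quantile-normalized with neqc (limma 3.58.1, R 4.3.3, offset 16, log2). Probes with a detection p below 0.05 on at least 4 of 8 arrays were kept (13732 of 25697), and the brightest per symbol gave 9971 features, 797 of them unnamed probes. The precision is limited by 4 arrays per group.

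Leukemic and control arrays were compared by a 2-class unpaired rank product, written here after the method the study names, over 16 array pairs with 100 permutations within arrays and a threshold of 0.05, and by limma with a trend (2-sided, Benjamini-Hochberg adjusted over all features), which gave the differences, SE and intervals. Both were run on simulated data with independent noise of equal size in every gene and no outlying array. That does not show how they behave under the spread of the leukemic arrays. The rank product does not use a gene's own spread. No set test was run.

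Values on every array are given for the 3 measured genes with the largest difference in each role and for Cdk1 and Top2a. Of each other list the 3 genes with the largest difference are named, with Foxm1, Mybl2, Cdkn1a and Ccnd1. Any other gene named outside the list of 45, and further values on every array, were chosen after values were seen. Promoters are from the RefSeq table (GRCm38.p6), and probe positions were not used. Alternatives covered background correction, scaling, filter, probe choice, array weights, the authors' matrix, a block on replicate number and each array left out.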

Additional observations from a re-analysis of the deposited data

Results flagged for a closer look

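Of 88 groups of 4 arrays tested for an array far from the rest of its group, 3 were marked, and chance marks about 1 in 20. *Cdca8* on control replicate 2 had a log2 signal of 9.26, with the nearest control array at 8.80. The median of the B cell markers on leukemic replicate 4 was 3.31 above the control mean (log2), with the nearest leukemic array at 0.77. The median of the T and NK cell markers was 0.71 on leukemic replicate 3, with the nearest leukemic array at −0.06. It rests on 2 measured genes, *Prf1* and *Thy1*, and *Thy1* is also on the fibroblast and spleen mesenchyme marker list.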

How the results depend on the processing

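The count of measured genes that fell by the rank product, 0 of 29, was 2 without the detection filter (*Melk* and *Shcbp1*, of 8 features that fell in all), 1 with the mean of a gene's probes (*Shcbp1*, of 3), and 4 in the authors' values with every probe a feature and no filter (*Aurka*, *Birc5*, *Top2a* and *Prc1*), where 93 features in all fell. It was 0 to 2 with 1 array left out, and 1 (*Shcbp1*, of 8) without both arrays numbered 4, a choice made after seeing the data. The replicate numbers were not taken to pair the samples. Deviations of same-numbered arrays correlated at 0.251, 0.301, 0.194 and 0.0308, and leukemic replicates 1 to 3 correlated best with their own number but replicate 4 with control replicate 3. With the number as a block the rank product called 2 (*Melk* and *Shcbp1*, of 16). limma called 0 in every setting run, with smallest adjusted p values of 0.303 to 0.963.

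Genes with all leukemic below all control arrays numbered 2, against 0 under median scaling, 1 with detection required on all 8 arrays, 1 with the mean of probes, and 2 to 14 with 1 array left out. The median difference was −0.71 to −0.22 with 1 array left out and −0.50 to −0.24 in the other settings. Array weights turned *Cdc25c* (0.0020), *Ube2c* (0.16), *Cdca3* (0.043), *Dlgap5* (0.18) and *Thy1* (0.018), and leaving out both arrays numbered 4 turned *Cdc25c* (0.017), *Ube2c* (0.26), *Cdca3* (0.11), *Dlgap5* (0.19) and *Ccnd1* (0.060). With 1 array left out the difference was −0.60 to 0.046 for *Cdc25c*, −0.20 to 0.17 for *Ube2c*, −0.44 to 0.079 for *Cdca3*, −0.40 to 0.22 for *Dlgap5*, −0.34 to 0.046 for *Ccnd1* and −0.28 to 0.010 for *Thy1*, turning without leukemic replicate 4, and for *Ube2c* also without leukemic replicate 1 or control replicate 4. The cause was not tested. Without background correction *Shcbp1* gave −0.71 and *Melk* −0.62, and in the authors' values they gave −0.34 and −0.24. The largest difference among the 29 genes in the authors' values was −0.64, for *Prc1*. Low signal over background limits *Melk*, *Shcbp1*, *Ube2c*, *Pttg1*, the 9 genes below the filter and, outside the list of 45, *Ccne2*.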
